A study of Mus musculus with 6 samples.

Results

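A set of 10 imprinted genes was followed through 6 RNA-Seq libraries of mouse chronic myelogenous leukemia (CML) stem cells. The set held *H19*, *Igf2*, *Cdkn1c*, *Meg3*, *Dlk1*, *Peg3*, *Grb10*, *Ndn*, *Plagl1* and *Igf2r*, chosen by gene name and not by level, and all 10 had a row among the 36976 genes of the deposited table. All libraries came from tet-CML mice on the C57BL/6 strain. These mice carry the SCL-tTA and TRE-BCR-ABL1 transgenes, so that withdrawing doxycycline switches on the BCR-ABL1 fusion kinase in cells where the *Scl* control elements are active. Both groups therefore expressed BCR-ABL1, and the cells were taken 5 weeks after induction from mice of 10 to 12 weeks of age. The groups were 3 Gdpd3+/+ libraries (replicates 1, 2 and 3) and 3 Gdpd3-/- libraries (replicates 5, 6 and 7), in which a genome-edited deletion of 5 bases disrupts the lysophospholipase D gene *Gdpd3*. The cells were long-term (LT) CML stem cells, sorted from bone marrow as CD150+CD48-CD135- cells of the Lineage-Sca-1+cKit+ (LSK) fraction. RNA came from 22 male and 12 female Gdpd3+/+ mice and from 5 male and 5 female Gdpd3-/- mice. The study describes the libraries as biologically independent, but the sources used here do not say how the mice were divided among them. P-values below therefore measure the spread between these libraries.

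An imprinted gene is transcribed mainly from the allele of 1 parent, because a nearby control region carries DNA methylation from only 1 of the parental germ lines. Many such genes set growth before birth, and several are kept on in quiescent blood stem cells, where *Cdkn1c* and the *H19*-*Igf2* locus are known for their part in keeping stem cells out of cycle. Genes transcribed from the maternal allele, such as *H19*, *Cdkn1c*, *Grb10*, *Igf2r* and *Meg3*, mostly restrain growth. Among the paternally transcribed genes, *Igf2* and *Dlk1* promote growth, so the 10 genes are not all growth-restraining. The libraries give the level of each transcript from both alleles together, and allelic origin was not measured. In bulk libraries, fewer cells of a type and less RNA per cell cannot be told apart.

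The depth, if each step of the table is 0.01 read, was 49753146 to 62762437 reads in the Gdpd3+/+ libraries and 21334716 to 36421439 reads in the Gdpd3-/- libraries. *Gdpd3* itself stood at 7.30, 3.29 and 2.95 FPKM (fragments per kilobase of transcript, scaled to the size of the library) in Gdpd3+/+ libraries and at 0.110, 0.0129 and 0.681 FPKM in Gdpd3-/- libraries, without overlap. All 12 fixed LT stem cell markers were above 0 in every library, and their summed level was 667 to 746 FPKM in Gdpd3+/+ and 732 to 951 FPKM in Gdpd3-/- libraries. *Flt3*, which encodes the CD135 antigen that the sort excluded, rose from 9.80 to 11.01 FPKM to 36.8 to 46.5 FPKM (log2 fold change 1.93, adjusted p = 0.00562 by limma). Without Gdpd3+/+ replicate 1 or 2 its adjusted p was 0.0705 or 0.0502. *Cd48*, which encodes the CD48 antigen that the sort also excluded, was higher without overlap but not called. It stood at 39.8 to 44.8 and 51.6 to 92.2 FPKM (log2 fold change 0.60, adjusted p = 0.188 by limma). Over all genes tested, 23.5% were higher and 8.27% lower in Gdpd3-/- libraries without overlap, and 1.09% were called higher and 0.616% lower. The marker counts below stand beside these shares. Summed neutrophil and monocyte markers were 29697 to 32469 FPKM in Gdpd3+/+ and 8337 to 13756 FPKM in Gdpd3-/- libraries. Of these, 9 of 9 were lower without overlap and 5 were called lower (*Elane*, *Prtn3*, *Ltf*, *Ngp* and *Camp*). Calls in this list ran from 0, with no filter, no intensity trend or without any 1 of the Gdpd3+/+ libraries, to 9, without Gdpd3-/- replicate 5 or 7. Summed B and plasma cell markers were 36617 to 39859 FPKM in Gdpd3+/+ and 9447 to 19398 FPKM in Gdpd3-/- libraries. Of these 9 markers, 4 were lower and 2 higher without overlap, and 1 was called (*Mzb1*, log2 fold change -0.88, adjusted p = 0.0484 by limma). The *Mzb1* call was lost without any 1 of the libraries other than Gdpd3-/- replicate 7. Summed erythroid markers overlapped at 1543 to 2578 and 794 to 2431 FPKM, with 2 of 6 lower without overlap and 0 called. Summed endothelial markers were 5.58 to 6.39 and 8.27 to 8.88 FPKM, with 0 called. Of these, 1 of 7 was higher without overlap, not above the share over all genes. *Cdh5* and *Flt4* were at 0 in at least 1 library. Vomeronasal receptor genes, which blood cells are not known to use, had a value above 0 in 4.35 to 6.41% of 437 rows in Gdpd3+/+ and 30.9 to 35.0% in Gdpd3-/- libraries. What these differences contribute to the imprinted genes was not tested.

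In the fit across all genes (limma on log2(FPKM + 0.1), Benjamini-Hochberg adjustment), no member had an adjusted p under 0.05. This was 0 of the 9 members tested, where 422 of 24689 genes (1.71%) were called, 270 of them higher (1.09%) and 152 lower (0.616%) in Gdpd3-/- libraries. At an unadjusted p under 0.05, 1 member passed (*H19*), against 22.2% of all genes tested. The median log2 fold change of the 9 was 0.27, beside 0.24 over all genes tested. Thus the median member lay near the median gene. These medians are of signed values, so they do not give the size of a typical difference. The members ran from -0.49 to 2.73. *Peg3* lay under the filter of a mean of 0.05 FPKM and was not tested. *Plagl1* passed it only through Gdpd3-/- replicate 7.

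Of the 9 members tested, *H19* was higher in Gdpd3-/- than in Gdpd3+/+ libraries without overlap, as were 23.5% of all genes tested. *Grb10* was lower without overlap, as were 8.27% of all genes tested. The other 7 overlapped between the genotypes. The Gdpd3-/- libraries varied more among themselves than the Gdpd3+/+ libraries. For *H19* the coefficient of variation was 3.49% in Gdpd3+/+ and 66.7% in Gdpd3-/- libraries, and for *Grb10* it was 1.52% and 36.4%.

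**Figure D1:**
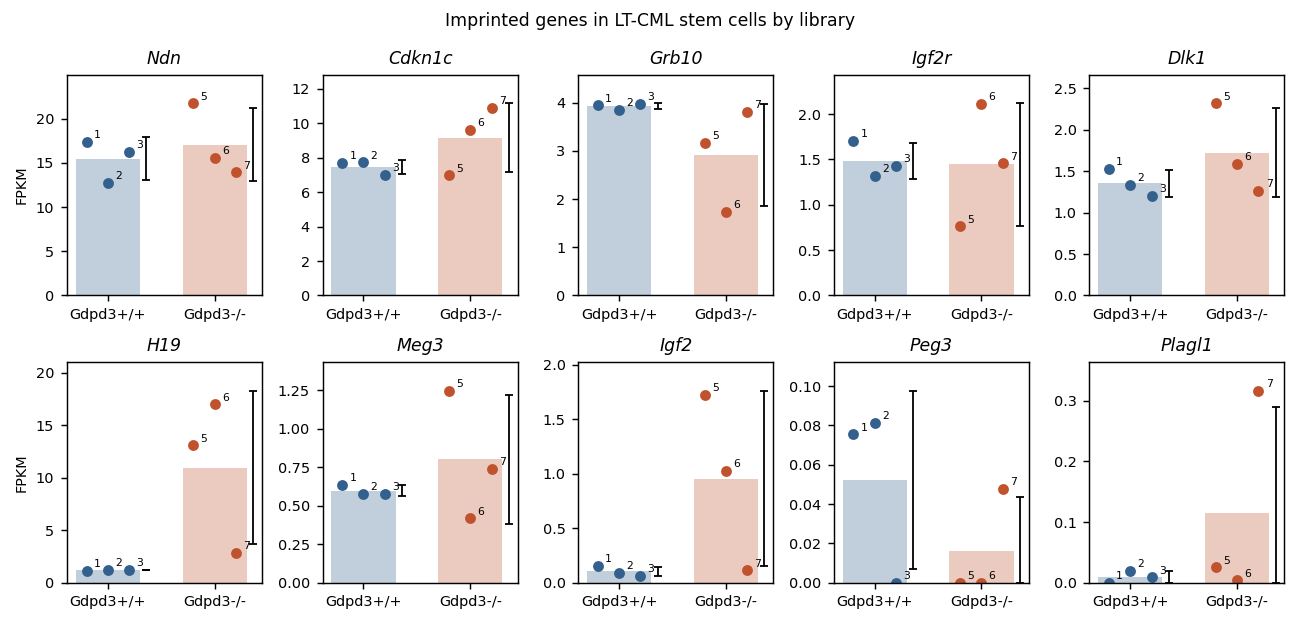
FPKM (vertical axes, linear, each panel with its own scale) of the 10 imprinted genes in each library, numbered by replicate, with bars at the genotype mean and, to the right of each bar, the SD (n = 3, cut at 0). *H19* lies near 1.21 FPKM in all 3 Gdpd3+/+ libraries and at 2.83 to 17.0 FPKM in Gdpd3-/- libraries, while *Ndn* and *Cdkn1c* overlap between the genotypes.

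In Gdpd3+/+ cells the order of mean levels was *Ndn*, *Cdkn1c*, *Grb10*, *Igf2r*, *Dlk1*, *H19*, *Meg3*, *Igf2*, *Peg3* and *Plagl1*, on the per-length FPKM scale. *Ndn*, *Cdkn1c* and *Grb10* were each separated from the gene after them by all 3 libraries. *Igf2r* could not be separated from *Dlk1*, nor *Dlk1* from *H19*, and the ranges of *Igf2*, *Peg3* and *Plagl1* overlapped in turn. In Gdpd3-/- cells *Ndn*, *H19* and *Cdkn1c* came first with overlapping neighbours. *Grb10*, *Dlk1*, *Igf2r*, *Igf2* and *Meg3* followed, each overlapping the next, and *Plagl1* and *Peg3* came last. *H19* thus stood sixth in the order in Gdpd3+/+ and second in Gdpd3-/- libraries.

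*H19* and *Igf2* share enhancers and a control region on chromosome 7, with *H19* transcribed from the maternal and *Igf2* from the paternal allele. *H19* (ENSMUSG00000000031, mm9 chr7:149761434-149764048, minus strand) makes a spliced non-coding RNA. The microRNA *Mir675*, of which all 84 bases lie inside an *H19* exon, is processed from that RNA. The arms of this microRNA are shown because their hairpin is counted inside *H19* in this table, with capitals marking the seed (bases 2 to 8). Sequences are from RefSeq on GRCm38.p6, where the 5p arm lies at chr7:142577112-142577133 and the 3p arm at chr7:142577078-142577099, both on the minus strand.
mmu-miR-675-5p: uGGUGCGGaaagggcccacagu
mmu-miR-675-3p: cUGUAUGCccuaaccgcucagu
The seeds of the arms differ. The library kit copies polyadenylated RNA, so the row *Mir675* (0.837, 0.948 and 0.583 FPKM in Gdpd3+/+, and 22.6, 9.48 and 5.21 FPKM in Gdpd3-/- libraries) shares its reads with the *H19* transcript and does not measure the mature microRNA.

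*H19* stood at 1.17, 1.23 and 1.25 FPKM in Gdpd3+/+ replicates 1, 2 and 3 and at 13.1, 17.0 and 2.83 FPKM in Gdpd3-/- replicates 5, 6 and 7. All Gdpd3-/- libraries were above all Gdpd3+/+ libraries, and replicates 5 and 6 were far above replicate 7. The means were 1.21 ± 0.0424 and 10.98 ± 7.32 FPKM (SD, n = 3 each). The log2 fold change was 2.73 (SE 0.64, 95% interval 1.202 to 4.26, adjusted p = 0.0831 by limma), so *H19* was not called. The exact two-sided permutation test of the means gave p = 0.1, which is as low as this design can go. Without Gdpd3-/- replicate 7, the lowest of its group, the log2 fold change was 3.52 (adjusted p = 0.00421 by limma). In that fit 3413 of 24056 genes tested were called. Leaving out any other 1 library gave no call for *H19*, with an adjusted p by limma of up to 0.296. With replicate 7 as the only Gdpd3-/- library the log2 fold change was 1.161.

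*Igf2* (ENSMUSG00000048583, mm9 chr7:149836673-149852721, minus strand) encodes insulin-like growth factor 2. It stood at 0.154, 0.0928 and 0.0654 FPKM in Gdpd3+/+ and at 1.72, 1.03 and 0.116 FPKM in Gdpd3-/- libraries. These values rest on 42, 32 and 22 reads against 202, 206 and 16 reads. Replicates 5 and 6 were high and replicate 7 lay within the Gdpd3+/+ range. On the log2 scale the difference was 1.93 (SE 0.84, 95% interval -0.08 to 3.93, adjusted p = 0.237 by limma), and the exact permutation test gave p = 0.2. Without Gdpd3-/- replicate 7, where 3413 of 24056 genes tested were called, the log2 fold change was 2.84 (adjusted p = 0.0222 by limma). With replicate 7 alone it was 0.10.

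Skeletal muscle transcripts moved with *H19* and *Igf2* across the libraries. The summed level of 14 fixed skeletal muscle markers was 1441, 1006 and 969 FPKM in Gdpd3+/+ and 12480, 17928 and 2372 FPKM in Gdpd3-/- libraries. In this sum too, Gdpd3-/- replicates 5 and 6 were far above replicate 7. All 14 were higher in Gdpd3-/- libraries without overlap, beside 23.5% of all genes tested. None was called, and none was at 0 in any library. Without Gdpd3-/- replicate 7 all 14 were called, as *H19* and *Igf2* were, beside 3413 of 24056 genes. For every 1000 FPKM of these markers, *H19* had 0.808, 1.22 and 1.28 FPKM in Gdpd3+/+ and 1.05, 0.949 and 1.19 FPKM in Gdpd3-/- libraries. On this scale the genotypes overlapped. *Igf2* had 0.107, 0.0922 and 0.0674 FPKM per 1000 in Gdpd3+/+ and 0.138, 0.0574 and 0.0489 FPKM per 1000 in Gdpd3-/- libraries, again with overlap. Summed marrow stromal and osteoblast markers were 9.49 to 10.7 FPKM in Gdpd3+/+ and 16.0 to 27.6 FPKM in Gdpd3-/- libraries. Of these 12 markers, 3 were higher without overlap, a share near the 23.5% over all genes tested. *Postn*, 1 of the 3, averaged 0.0426 FPKM in Gdpd3+/+ libraries and passed the filter only through Gdpd3-/- libraries. Of the 12, 1 was called (*Pdgfrb*), beside 1.09% of all genes called higher. *Lum* and *Bglap* were at 0 in at least 1 library. The *Pdgfrb* call held in 7 of 16 alternatives and was lost without any 1 of the Gdpd3+/+ libraries, without Gdpd3-/- replicate 5 and under TMM scaling and quantile normalization. The part of muscle or stromal RNA in the levels of *H19* and *Igf2* was not tested.

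**Figure D2:**
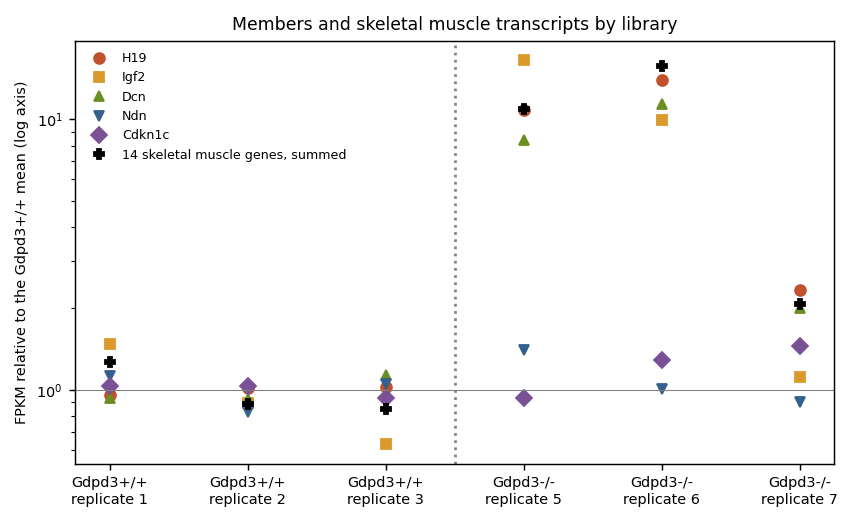
FPKM of *H19*, *Igf2*, the imprinted gene *Dcn*, *Ndn*, *Cdkn1c* and the sum of 14 skeletal muscle markers in each library, each divided by its Gdpd3+/+ mean (vertical log axis, 1 point per library). *H19*, *Dcn* and the muscle sum are high in Gdpd3-/- replicates 5 and 6 and lower in replicate 7, whereas *Ndn* and *Cdkn1c* stay near 1 in all 6 libraries.

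*Cdkn1c* (ENSMUSG00000037664, mm9 chr7:150644255-150646955, minus strand) encodes p57, an inhibitor of cyclin-dependent kinases known for holding stem cells in G0. It was the second most abundant member in Gdpd3+/+ cells, at 7.71, 7.72 and 6.999 FPKM. The Gdpd3-/- libraries were at 6.97, 9.63 and 10.9 FPKM, 1 of them just under the Gdpd3+/+ range and the others above it. The log2 fold change was 0.27 (SE 0.19, 95% interval -0.20 to 0.73, adjusted p = 0.454 by limma). This interval reaches from a fold of 0.872 to 1.66, so larger differences in either direction lie outside it.

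*Ndn* (ENSMUSG00000033585, mm9 chr7:69493163-69494814, plus strand) encodes necdin, a MAGE family protein that restrains cell cycle entry. It had the highest mean of the members in both genotypes, at 17.4, 12.8 and 16.2 FPKM in Gdpd3+/+ and 21.7, 15.6 and 13.9 FPKM in Gdpd3-/- libraries. The genotypes overlapped, with replicate 5 the highest, and in replicate 6 *Ndn* lay below *H19* (17.0 FPKM). The log2 fold change was 0.13 (SE 0.21, 95% interval -0.37 to 0.62, adjusted p = 0.722 by limma), and its sign turned under TMM scaling (-0.12).

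The *Ndn* start is shown because this gene had the highest mean of the set in both genotypes, and the *Plagl1* start and the first *Meg3* start were added after their values were seen. RefSeq windows on GRCm38.p6, from 250 bases before to 50 bases after each start, were found for 8 of the 10 members, in 13 windows, and were searched on both strands. The search used TGCCGC, the hexamer that ZFP57 binds when methylated, and GGGCGG, the GC box bound by Sp1. TGCCGC was found in 4 of the 13 windows, beside 11.6% of all 32851 windows, and GGGCGG in 6, beside 35.7%. No match of one motif overlapped a match of the other. The 3 windows lie at chr7:62348027-62348326 (*Ndn*), chr10:13090582-13090881 (*Plagl1*) and chr12:109540746-109541045 (*Meg3*), all on the plus strand. Capitals mark GGGCGG, read on the opposite strand as CCGCCC, in *Ndn*, and TGCCGC, read on the opposite strand as GCGGCA, in the others.
Ndn: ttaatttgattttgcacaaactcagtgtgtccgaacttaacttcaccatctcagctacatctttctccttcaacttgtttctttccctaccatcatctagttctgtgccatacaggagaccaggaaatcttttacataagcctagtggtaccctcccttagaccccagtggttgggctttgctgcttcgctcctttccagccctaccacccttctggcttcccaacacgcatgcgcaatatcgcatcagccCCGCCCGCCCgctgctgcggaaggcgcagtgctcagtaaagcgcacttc
Plagl1: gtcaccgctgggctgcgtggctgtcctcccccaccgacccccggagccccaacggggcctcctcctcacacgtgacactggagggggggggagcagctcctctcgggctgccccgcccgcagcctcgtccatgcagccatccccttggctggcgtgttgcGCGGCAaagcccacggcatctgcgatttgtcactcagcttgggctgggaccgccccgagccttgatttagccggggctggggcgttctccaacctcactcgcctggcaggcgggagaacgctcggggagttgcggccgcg
Meg3: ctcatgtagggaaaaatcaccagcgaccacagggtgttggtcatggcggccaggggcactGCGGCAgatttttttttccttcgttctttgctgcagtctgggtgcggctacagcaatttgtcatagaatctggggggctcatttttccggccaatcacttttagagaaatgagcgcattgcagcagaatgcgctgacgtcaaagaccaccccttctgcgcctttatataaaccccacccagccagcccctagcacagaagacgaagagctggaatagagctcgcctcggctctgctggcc
CpG dinucleotides numbered 11 in the *Ndn*, 26 in the *Plagl1* and 13 in the *Meg3* window, where the median over all windows was 7. Of all 13 member windows, 10 held more than that median, and the second *Meg3* window held 1. The methylation of these windows was not measured.

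*Grb10* (ENSMUSG00000020176, mm9 chr11:11830511-11938686, minus strand) encodes an adaptor that dampens insulin and IGF receptor signalling. It stood at 3.95, 3.86 and 3.97 FPKM in Gdpd3+/+ and at 3.17, 1.74 and 3.81 FPKM in Gdpd3-/- libraries. All Gdpd3-/- libraries were below all Gdpd3+/+ libraries, replicate 7 only narrowly. In the fit *Grb10* had a log2 fold change of -0.49 (SE 0.31, 95% interval -1.23 to 0.25, adjusted p = 0.389 by limma), and the exact permutation test gave p = 0.1, the smallest possible. Without Gdpd3-/- replicate 6, the lowest library, the log2 fold change was -0.17 (adjusted p = 0.519 by limma).

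*Igf2r* (ENSMUSG00000023830, mm9 chr17:12875272-12962530, minus strand) encodes the receptor that takes up and degrades IGF2. It stood at 1.70, 1.32 and 1.43 FPKM in Gdpd3+/+ and at 0.765, 2.11 and 1.46 FPKM in Gdpd3-/- libraries. Replicate 5 was the lowest and replicate 6 the highest of all 6. In the fit *Igf2r* had a log2 fold change of -0.13 (95% interval -1.11 to 0.85, adjusted p = 0.861 by limma). The antisense RNA *Airn* runs opposite to *Igf2r* and shares no exon bases with it, and stood at 0.291 to 0.449 FPKM in Gdpd3+/+ and 0.353 to 0.688 FPKM in Gdpd3-/- libraries.

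*Dlk1* and *Meg3* lie in a shared domain on chromosome 12. *Dlk1* (ENSMUSG00000040856, mm9 chr12:110691033-110701546, plus strand) encodes a membrane protein related to the Notch ligands. It stood at 1.53, 1.34 and 1.203 FPKM in Gdpd3+/+ and at 2.32, 1.59 and 1.27 FPKM in Gdpd3-/- libraries, with replicates 5 and 6 above the Gdpd3+/+ range and replicate 7 within it. In the fit *Dlk1* had a log2 fold change of 0.29 (95% interval -0.48 to 1.06, adjusted p = 0.590 by limma).

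*Meg3* (ENSMUSG00000021268, mm9 chr12:110779211-110809936, plus strand) is a long non-coding RNA. It stood at 0.638, 0.578 and 0.580 FPKM in Gdpd3+/+ and at 1.25, 0.419 and 0.739 FPKM in Gdpd3-/- libraries, which lay on both sides of the Gdpd3+/+ range. The log2 fold change was 0.26 (95% interval -0.84 to 1.37, adjusted p = 0.743 by limma). All 1228 exon bases of the opposite-strand gene *Gm17639* overlap *Meg3* exons, and the kit does not mark strand, so reads of the pair cannot be told apart. *Rian*, a further maternal RNA of this domain, stood at 0.207 to 0.465 FPKM in Gdpd3+/+ and 0.117 to 0.822 FPKM in Gdpd3-/- libraries, and *Dio3* was listed at 0 in all 6.

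*Peg3* and *Plagl1* both encode zinc finger proteins and were near 0. *Peg3* (ENSMUSG00000002265, mm9 chr7:6656603-6683132, minus strand) had 50, 68 and 0 reads in Gdpd3+/+ and 0, 0 and 16 reads in Gdpd3-/- libraries, or at most 0.0814 FPKM. A count of 0 allows up to 3 reads, which is 0.00368 FPKM in Gdpd3+/+ replicate 3, 0.0106 FPKM in Gdpd3-/- replicate 5 and 0.00619 FPKM in replicate 6. The exact permutation test gave p = 0.4. *Plagl1* (ENSMUSG00000019817, mm9 chr10:12810497-12851500, plus strand) had 0, 9 and 4 reads in Gdpd3+/+ and 4, 1 and 58 reads in Gdpd3-/- libraries. Only replicate 7 stood apart, at 0.317 FPKM, where the next highest library was at 0.0257 FPKM. Over all 6 libraries the log2 fold change was 0.69 (95% interval -0.87 to 2.24, adjusted p = 0.534 by limma).

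**Figure D3:**
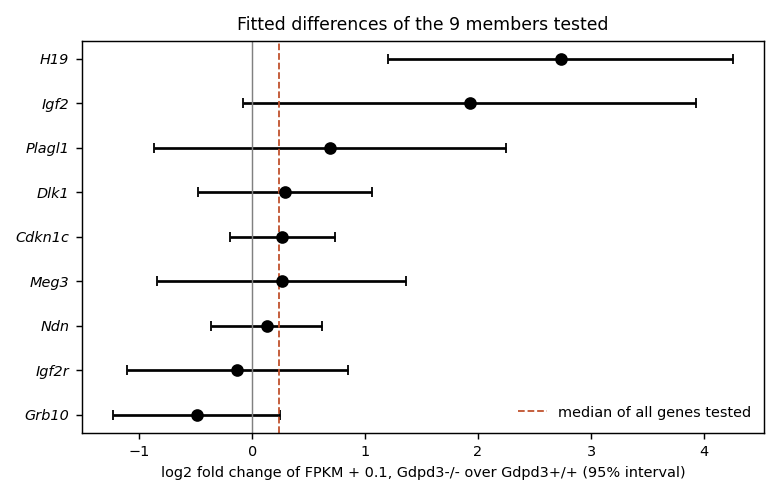
Log2 fold change of FPKM + 0.1 (horizontal axis, Gdpd3-/- over Gdpd3+/+) of the 9 members tested, as points with 95% intervals from limma, with 0 as a grey line and the median of all genes tested (0.24) as a dashed line. The interval of *H19* (1.202 to 4.26) lies above both lines, and the other 8 intervals cross 0.

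The median log2 fold change over all genes, 0.24 as deposited, became 0.02 after TMM scaling of FPKM and -0.01 after quantile normalization. Relative to the median of all genes, *H19* was higher by 2.49 as deposited, 2.48 under TMM scaling and 2.47 under quantile normalization on the log2 scale. *Igf2* was higher than that median by 1.69, 1.75 and 1.22. *Grb10* fell short of it in all 3 scalings, at -0.73, -0.75 and -0.76 relative to the median. *Cdkn1c* stayed close to it, at 0.03, 0.00 and 0.16 relative to the median. No member was called under any of these scalings.

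No neighbour in the members' domains and no imprinted gene of other domains was called. Of 30 neighbours in the members' domains, 27 had a row and 22 were tested, with 0 called and 4 at an unadjusted p under 0.05, beside 22.2% of all genes tested. Their median log2 fold change was 0.11. Without overlap, 4 were higher in Gdpd3-/- libraries (*Slc22a18*, *Osbpl5*, *Cobl* and *Slc22a2*), beside 23.5% of all genes. Neither count stood above the share over all genes. *Slc22a2* was at 0 in all 3 Gdpd3+/+ libraries and passed the filter only through Gdpd3-/- libraries, so its separation shows nothing. *Slc22a18*, a transporter gene near *Cdkn1c*, stood at 7.04, 4.78 and 6.32 FPKM in Gdpd3+/+ and at 11.8, 9.65 and 10.98 FPKM in Gdpd3-/- libraries (log2 fold change 0.84, adjusted p = 0.0785 by limma). *Osbpl5*, an oxysterol-binding protein gene of the same domain, stood at 1.34 to 1.83 and 2.73 to 3.54 FPKM (0.92, adjusted p = 0.103). *Phlda2*, also a neighbour of *Cdkn1c* and known for restraining placental growth, had a log2 fold change of -0.01. *Snrpn*, in the *Ndn* domain, stood at 1.25 to 1.67 FPKM in Gdpd3+/+ and at 6.08, 14.7 and 1.34 FPKM in Gdpd3-/- libraries (1.70, adjusted p = 0.260). As with *Igf2*, replicates 5 and 6 were high and replicate 7 was in the Gdpd3+/+ range. Per 1000 FPKM of muscle markers *Snrpn* had 1.162 to 1.49 FPKM in Gdpd3+/+ and 0.487 to 0.817 FPKM in Gdpd3-/- libraries, lower without overlap. The muscle sum was higher in every Gdpd3-/- library, so any gene that rose less, or not at all, comes out lower on this scale. The separation shows only that *Snrpn* rose less than the muscle markers.

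Of 30 imprinted genes of other domains, 29 had a row and 25 were tested, with 0 called and 6 at an unadjusted p under 0.05. Their median log2 fold change was 0.13. Without overlap, 6 were higher and 2 lower, beside 23.5% and 8.27% of all genes, so these shares were near those over all genes. Among the 6, *Kcnk9* was at 0 in all 3 Gdpd3+/+ libraries, and *Nnat* averaged 0.0268 FPKM there. Both passed the filter only through Gdpd3-/- libraries, so their separation shows little. *Dcn*, which encodes the matrix proteoglycan decorin, stood at 1.27, 1.25 and 1.54 FPKM in Gdpd3+/+ and at 11.3, 15.4 and 2.71 FPKM in Gdpd3-/- libraries (log2 fold change 2.45, adjusted p = 0.0920 by limma). Per 1000 FPKM of muscle markers it had 0.878 to 1.59 FPKM in Gdpd3+/+ and 0.861 to 1.14 FPKM in Gdpd3-/- libraries, which overlapped as those of *H19* did. *Ppp1r9a*, which encodes an actin-binding protein, stood at 1.04 to 1.37 and 2.33 to 2.605 FPKM (0.92, adjusted p = 0.108). *Gatm*, an enzyme of creatine synthesis, stood at 64.2 to 68.1 FPKM in Gdpd3+/+ and at 30.2, 30.9 and 50.9 FPKM in Gdpd3-/- libraries (-0.86, adjusted p = 0.0867). *Ampd3*, an AMP deaminase, stood at 5.55 to 6.15 and 3.32 to 4.41 FPKM (-0.59, adjusted p = 0.127). *Mcts2* stood at 1.98 to 4.74 FPKM and at 0.118, 3.74 and 4.52 FPKM (-0.97, adjusted p = 0.617), and its sign turned without replicate 5. *Gnas* and *Copg2* were higher without overlap by small amounts, 0.13 and 0.22 on the log2 scale.

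**Figure D4:**
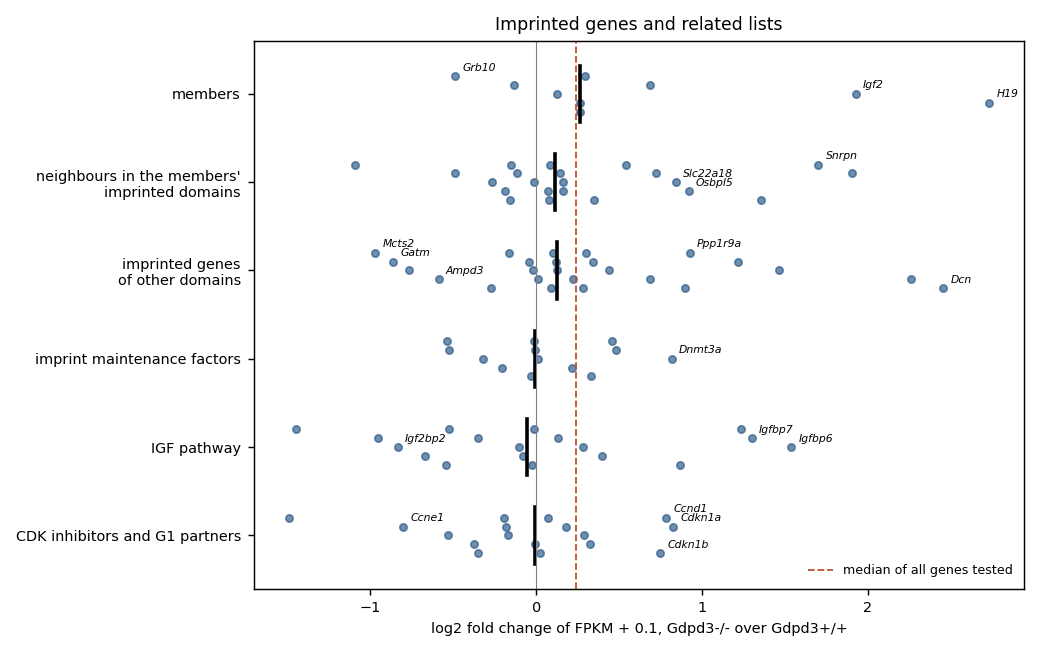
Log2 fold change of FPKM + 0.1 (horizontal axis, Gdpd3-/- over Gdpd3+/+) of each tested gene, 1 point per gene, for the members and 5 related lists, with the list median as a black bar and the median of all genes tested as a dashed line. The medians of the 5 related lists lie between -0.06 and 0.13, and single genes such as *H19*, *Dcn*, *Igf2* and *Snrpn* lie far to the right.

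The factors that maintain imprints were 13 tested of 15, with 0 called, 2 at an unadjusted p under 0.05 (22.2% over all genes) and a median log2 fold change of -0.01. *Dnmt3a*, a de novo DNA methyltransferase, stood at 2.91, 2.92 and 2.80 FPKM in Gdpd3+/+ and at 5.97, 4.59 and 4.96 FPKM in Gdpd3-/- libraries (log2 fold change 0.82, adjusted p = 0.0812 by limma). *Dnmt1*, the maintenance methyltransferase, overlapped between the genotypes at 37.9 to 45.7 and 27.0 to 47.9 FPKM. *Zfp57* stood below 1 FPKM in every library, and *Trim28*, its corepressor, at 34.9 to 37.9 FPKM in Gdpd3+/+ and 39.9 to 44.1 FPKM in Gdpd3-/- libraries (0.21, adjusted p = 0.237).

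The IGF pathway, in which *Igf2*, *Igf2r* and *Grb10* act, had 18 further genes tested of 20, with 0 called, 3 at an unadjusted p under 0.05 (22.2% over all genes) and a median log2 fold change of -0.06. *Igfbp7*, a secreted IGF-binding protein, stood at 2.04, 2.01 and 1.61 FPKM in Gdpd3+/+ and at 6.47, 4.16 and 4.03 FPKM in Gdpd3-/- libraries (log2 fold change 1.30, adjusted p = 0.0649 by limma). *Igfbp6*, which binds IGF2, stood at 0.416 to 1.01 FPKM and at 2.32, 11.4 and 0.215 FPKM (1.54, adjusted p = 0.495). *Igf2bp2*, which binds *Igf2* mRNA, stood at 1.21 to 1.67 FPKM and at 1.05, 0.223 and 1.38 FPKM (-0.83, adjusted p = 0.460). *Igf1r*, the signalling receptor of IGF2, overlapped between the genotypes (0.13, adjusted p = 0.834).

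*Cdkn1c* was also set beside the other CDK inhibitors and their G1 partners, of which 17 of 18 were tested, with 0 called, 5 at an unadjusted p under 0.05 (22.2% over all genes) and a median log2 fold change of -0.01. *Cdkn1a* (p21) stood at 5.37, 6.64 and 6.71 FPKM in Gdpd3+/+ and at 12.8, 8.04 and 13.2 FPKM in Gdpd3-/- libraries (log2 fold change 0.83, adjusted p = 0.108 by limma). *Cdkn1b* (p27) stood at 2.79, 2.26 and 2.10 FPKM and at 3.55, 5.12 and 3.61 FPKM (0.75, adjusted p = 0.143). Both were higher without overlap, as were 23.5% of all genes. *Ccnd1* (cyclin D1) stood at 1.88 to 2.05 and 2.45 to 4.59 FPKM (0.78, adjusted p = 0.174). *Ccne1* (cyclin E1) stood at 11.1 to 13.8 and 3.56 to 10.4 FPKM (-0.80, adjusted p = 0.283).

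The genes most like a member were sought for the 3 most abundant members, as Pearson's r of log2(FPKM + 0.1) over the 6 libraries among 15102 genes with a mean of at least 1 FPKM. The points share libraries and depths, so r is given as a description. *H19* was among the 3 through its Gdpd3-/- level, since in Gdpd3+/+ libraries *Grb10* stood above it. For *H19* they were *Gm15920* (r = 0.9998), *Ndufa9* (0.9996) and *U1* (0.9992), and the 14 muscle markers had r of 0.952 to 0.998 with *H19*. *U1* was at 0 in all 3 Gdpd3+/+ libraries and at 5.40, 7.32 and 0.241 FPKM in Gdpd3-/- replicates 5, 6 and 7. It reached a mean of 1 FPKM only through Gdpd3-/- libraries, so its r with *H19* shows nothing. *Igf2* had r = 0.938 with *H19*. For *Cdkn1c* they were *Ehbp1l1* (0.994), *Gm15518* (0.990) and *Slc25a1* (0.986), with muscle markers at 0.101 to 0.436. For *Ndn* they were *1110059G10Rik* (0.972), *Gm16710* (0.967) and *Stap1* (0.962), with muscle markers at 0.321 to 0.563.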

How the data were processed

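SMART-Seq v4 and Nextera XT libraries were sequenced as paired-end reads of 150 bases. Per the submitters' processing notes, the tools were Trimmomatic, Trim Galore, cutadapt 1.16, STAR 2.6.1a, featureCounts 1.6.1 and DESeq2, with build mm9. The authors deposited FPKM values for 36976 genes. A second deposited table holds the authors' own comparison (fold changes and p-values) and was not used. FPKM times gene length was, in every library, a whole multiple (within 0.01 of a step) of 0.01 read, and 47.2 to 55.2% of values above 0 were whole reads, so read numbers and depths were recovered from it. This reading of the steps as fractional reads rests on the values alone and is not stated in the sources used here, and every read number, depth and floor depends on it. Molecules were not tagged, so floors cover counting error only.

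Genes averaging at least 0.05 FPKM (24689) entered a limma 3.58.1 model in R 4.3.3, on log2(FPKM + 0.1), with an intensity trend and genotype alone as its term. A fold change on this scale understates that of low genes. P-values were adjusted over all genes tested. Single members were compared by exact two-sided permutation tests over 20 assignments (SciPy 1.17.1). From the other lists, genes with an adjusted p under 0.05 were named, and up to 3 with the largest and smallest fold change (at least 1.5-fold, none for marker lists) with a mean of at least 1 FPKM. *Cobl*, *Slc22a2*, *Phlda2*, *Airn*, *Rian*, *Dio3*, *Gnas*, *Copg2*, *Dnmt1*, *Zfp57*, *Trim28*, *Igf1r*, *Cdh5*, *Flt4*, *Lum* and *Bglap* were picked with their values in view. So were *Kcnk9*, *Nnat*, *Postn* and *Cd48*. The members and lists were chosen with earlier results of these data known. Each choice was varied in turn: the pseudocount (0.01 or 1), the filter (none, or a mean of at least 1 FPKM), the scaling (quantile normalization, or TMM with 30% of M and 5% of A values cut off), the intensity trend (none), the library weights (array weights) and the libraries (1 left out at a time). Leaving out Gdpd3-/- replicates 5 and 6 together, and voom on the recovered reads, were added after seeing the data.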

Additional observations from a re-analysis of the deposited data

How the results depend on the processing

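No paired analysis was possible because the genotypes share no replicate number. Over all genes, 422 were called, 270 higher and 152 lower. The count was 225 with a pseudocount of 1, 213 with no filter, 673 with a mean of at least 1 FPKM, 153 with no intensity trend, 240 with array weights and 903 by voom. Rescaling turned the balance, with 114 higher against 270 lower under TMM and 119 higher against 206 lower under quantile normalization. Leaving out 1 library gave 0 to 3413 calls: 0, 1 and 21 without Gdpd3+/+ replicates 1, 2 and 3, and 187, 462 and 3413 without Gdpd3-/- replicates 5, 6 and 7. Without both replicates 5 and 6 there were 2294. The cause was not tested.

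With at least 2 libraries per genotype, members called numbered 0 except without Gdpd3-/- replicate 7 (2, *H19* and *Igf2*, range 0 to 2). Leaving out both replicates 5 and 6 left 1 Gdpd3-/- library, so calls in that fit are not given. *Plagl1* passed the filter on low values only through replicate 7, so its higher value there shows nothing. Leaving out 1 library gave 0 to 2 calls among the domain neighbours, 0 to 3 among other imprinted genes, 0 to 3 among imprint maintenance factors, 0 to 1 in the IGF pathway and 0 to 4 among CDK inhibitors and partners. In each of these lists the highest count came without Gdpd3-/- replicate 7. In that setting 3413 of 24056 genes tested were called over all genes, and 2 of the 8 members tested. In the CDK list 1 gene was also called without replicate 6, where 462 of 23839 genes were called. Calls in these lists without both replicates 5 and 6 are likewise not given. Voom called 1 neighbour, 2 other imprinted genes, 1 maintenance factor and 1 CDK gene, beside 903 of 24689 genes. A mean of at least 1 FPKM gave 1 call in the IGF pathway, beside 673 of 15103 genes. The median log2 fold change of the members was 0.22 to 0.33 when 1 library was left out.

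Signs turned for small differences. Quantile normalization gave *Meg3* -0.29 and *Dlk1* -0.14 on the log2 scale, and TMM scaling gave *Ndn* -0.12. Leaving out 1 library gave -0.081 to 0.61 for *Meg3*, -0.060 to 0.26 for *Ndn*, -0.44 to 0.24 for *Igf2r* and -1.75 to 0.45 for *Mcts2*, with the sign turning without Gdpd3-/- replicate 5 and, for *Ndn*, also without Gdpd3+/+ replicate 2 (-0.0041). Without both replicates 5 and 6 the values were -0.086 for *Dlk1*, -0.14 for *Ndn*, -0.12 for *Snrpn*, 0.58 for *Mcts2*, 0.023 for *Igf2bp2* and -1.17 for *Igfbp6*. Over the alternatives the adjusted p by limma ranged from 0.00421 to 0.296 for *H19*, 0.0222 to 0.832 for *Igf2* and 0.173 to 0.712 for *Grb10*. *Peg3* and *Plagl1* rest on 68 reads or fewer in each library. These numbers did not follow depth. *Peg3* had 68 reads in Gdpd3+/+ replicate 2 and 0 in replicate 3, at depths of 62762437 and 61283166 reads.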
